A study of Mus musculus with 30 samples.

Results

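Differences between CRY2 D325H and wild-type CRY2 were taken from the 6 libraries of these constructs plated at low density, 3 of each, among the 30 libraries of the series. The D325H and WT groups were chosen by the headings of the TPM columns and not by any measured value. Both groups are mouse embryonic fibroblasts (MEFs) without endogenous Cry2 (Cry2-/-), with c-MYC stably overexpressed together with either the wild-type protein (WT) or the protein in which an aspartate is changed to histidine (D325H). All were plated at 150 cells per well in 3% O2 and 15% serum and collected on day 14. Each replicate combined the cells of 2 wells, and the labels call the replicates biological. Reference groups used beside them are cells of the same type with an empty vector (EV) or with CRY2 S510L at low density. The others are WT and D325H plated at 500 cells per well and collected on day 11, which is called high density here. A construct was carried in a cell population whose derivation the labels do not describe, so that a difference between constructs and a difference between cell populations cannot be told apart. The p-values measure the spread between libraries, pooled over all 10 groups of the series, which include CRY2 F428D at each density.

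CRY2 is a flavoprotein relative that represses transcription by CLOCK and BMAL1 in the circadian feedback loop, and it is also known to promote turnover of c-MYC. The p53 protein (gene Trp53) activates genes of cell cycle arrest, apoptosis and DNA repair, and its own inhibitors MDM2, PPM1D and cyclin G1 are among its targets, which closes a feedback loop. Embryonic fibroblasts in culture make large amounts of collagen, proteoglycans and contractile proteins, and MYC is known to drive genes of ribosome assembly and nucleotide synthesis in them.

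The values are TPM, transcript abundances scaled to a fixed total and corrected for transcript length, so that levels can be compared between genes. A difference below is the mean of log2(TPM + 1) in D325H less that in WT, with the standard error of the fit, and it understates the change of genes with low TPM. A gene is called when the Benjamini-Hochberg adjusted p of limma, over 14093 genes tested, is under 0.05. Between 12182 and 12655 genes reached 1 TPM in each of the 6 libraries, and the read depth behind a TPM value is unknown. Over all genes tested, 4081 were called (29%), with 2090 higher in D325H (14.8%) and 1991 lower (14.1%), and the median difference was -0.00. A log2 difference of at least 1 was reached by 734 of the higher and 394 of the lower genes. The 6 libraries did not overlap between the groups in 4406 genes (31.3%).

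The third D325H library stood apart from the other D325H libraries. Its correlation of log2(TPM + 1) across the genes tested was 0.9604 and 0.9717 with the other D325H libraries, which correlated at 0.9831 with each other, and 0.9508 to 0.9727 with the WT libraries. The WT libraries varied as well. WT library 1 correlated at 0.9791 with WT library 2 and at 0.9719 with WT library 3, and the latter 2 at 0.9576. Among genes called higher the third D325H library had the lowest D325H value in 72.1%, against 27.4% of all genes tested. Among genes called lower it had the highest D325H value in 90.6%, against 52.6% of all. The median shift of the called-higher genes from the WT mean was 0.89, 0.85 and 0.58 in D325H libraries 1, 2 and 3, and that of the called-lower genes was -0.84, -0.68 and -0.30. Without the third library 2158 genes were called higher (15.4%) and 2799 lower (19.9%). The higher and lower calls over all genes were 1316 and 853 without D325H library 1 and 1379 and 1144 without D325H library 2. They were 1370 and 1135 without WT library 1, 2540 and 1992 without WT library 2, and 1434 and 1752 without WT library 3. List counts with a library left out follow these shifts in part and are to be read beside them. The calls also rest on the spread estimated over all 30 libraries. The median over genes of the SD of log2(TPM + 1) was 0.233 in WT and 0.219 in D325H at low density. It was 0.156 in EV and 0.17 in S510L at low density, and 0.114 in WT and 0.19 in D325H at high density. The 2 groups compared had the largest of these. A fit to these 6 libraries alone left 218 higher calls (1.55%) and 29 lower ones (0.206%). Its limma adjusted p was 0.0952 for Trp53, 0.103 for Cdkn1a and 0.0647 for Mdm2. Counts from this 6-library fit and from the fit without the third D325H library are therefore set beside most gene groups. The gene groups and their members were chosen with earlier results of these data known. Their counts and medians therefore describe the members and are no separate support for a difference of the group.

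The introduced genes were checked first. Cry2 stood at 93.6, 126 and 129 TPM in the D325H libraries and at 97.9, 44.1 and 84.6 TPM in the WT libraries, against 4.59 ± 0.878 TPM (SD, n = 3) in EV. Both CRY2 groups were far above EV and their ranges overlapped; the difference of 0.68 ± 0.34 was not called (adjusted p = 0.14). Myc differed by -0.52 ± 0.34 (adjusted p = 0.256), with 25.1, 36.8 and 26.0 TPM in D325H and 36.7, 30.6 and 65.6 TPM in WT. Whether the introduced sequences are counted under these symbols is not given in the sources used here. Neither Cry1, the paralogue that these cells still have (0.38, adjusted p = 0.105), nor most of the ubiquitin ligases of cryptochromes moved past the test: 1 of 7 was called, Fbxl21 (0.60), and that call ended when any library but WT library 2 was left out (adjusted p = 0.0671 to 0.191). Without the third D325H library, 3 of the 7 were called lower and none higher, and with the 6 libraries alone none was called.

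Promoter sequences of genes that the results turn on are printed here, from RefSeq on GRCm38.p6, each reading 5′ to 3′ along the gene from 250 bases before its start to 50 bases after it. The Trp53, Mdm2, Cdkn1a and Ccng1 windows are shown from the list called the p53 core loop, and Bax as a death effector of p53. That list joins genes of the feedback loop with other p53 targets, such as Cdkn1a. Capitals mark matches to the p53 decamer, the repeated unit of the p53 response element, searched on both strands. Cdkn1a has 2 start sites in the table, and the window with the motif is shown. Myl9, a regulatory myosin light chain and one of the higher contractile genes, is shown with capitals at its CArG box, the motif of serum response factor.
Trp53 chr11:69580109-69580408 (plus strand): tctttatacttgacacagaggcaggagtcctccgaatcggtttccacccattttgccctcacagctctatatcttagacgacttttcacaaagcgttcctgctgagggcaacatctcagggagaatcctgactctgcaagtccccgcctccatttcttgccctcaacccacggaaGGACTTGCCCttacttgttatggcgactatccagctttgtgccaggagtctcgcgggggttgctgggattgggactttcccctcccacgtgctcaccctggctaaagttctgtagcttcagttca
Mdm2 chr10:117710709-117711008 (minus strand): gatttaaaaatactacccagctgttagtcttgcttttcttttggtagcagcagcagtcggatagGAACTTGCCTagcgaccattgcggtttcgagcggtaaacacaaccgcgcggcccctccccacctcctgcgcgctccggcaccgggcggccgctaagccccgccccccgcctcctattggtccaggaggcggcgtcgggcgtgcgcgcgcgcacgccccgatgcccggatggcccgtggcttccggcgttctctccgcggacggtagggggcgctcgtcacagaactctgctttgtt
Cdkn1a chr17:29090729-29091028 (plus strand): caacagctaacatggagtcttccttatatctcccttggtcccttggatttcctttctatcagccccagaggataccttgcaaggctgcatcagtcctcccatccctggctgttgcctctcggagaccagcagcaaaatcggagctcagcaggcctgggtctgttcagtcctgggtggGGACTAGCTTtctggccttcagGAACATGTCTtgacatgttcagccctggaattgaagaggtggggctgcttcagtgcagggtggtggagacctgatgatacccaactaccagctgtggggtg
Ccng1 chr11:40755237-40755536 (minus strand): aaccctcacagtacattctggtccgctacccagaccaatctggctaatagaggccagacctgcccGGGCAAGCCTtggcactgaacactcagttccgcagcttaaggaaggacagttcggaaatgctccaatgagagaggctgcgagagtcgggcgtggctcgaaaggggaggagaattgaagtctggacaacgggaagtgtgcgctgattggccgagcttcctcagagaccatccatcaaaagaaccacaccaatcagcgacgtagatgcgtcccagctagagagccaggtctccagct
Bax chr7:45466849-45467148 (minus strand): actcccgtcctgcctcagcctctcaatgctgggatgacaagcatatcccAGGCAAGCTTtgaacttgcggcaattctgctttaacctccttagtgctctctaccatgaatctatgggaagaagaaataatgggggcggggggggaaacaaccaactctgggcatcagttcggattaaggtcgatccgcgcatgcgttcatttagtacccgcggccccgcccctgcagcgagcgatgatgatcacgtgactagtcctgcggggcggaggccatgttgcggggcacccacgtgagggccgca
Myl9 chr2:156775214-156775513 (plus strand): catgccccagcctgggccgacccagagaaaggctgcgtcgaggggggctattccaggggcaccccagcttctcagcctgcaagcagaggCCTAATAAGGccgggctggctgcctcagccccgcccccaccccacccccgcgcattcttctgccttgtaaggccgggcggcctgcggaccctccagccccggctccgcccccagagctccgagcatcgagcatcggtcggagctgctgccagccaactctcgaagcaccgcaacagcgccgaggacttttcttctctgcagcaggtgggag

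A window could be assigned by symbol to 9780 of the genes tested. The decamer occurred in 8.47% of these, in 8.41% of the genes called higher and in 9.71% of those called lower. It was found in 5 of the 7 genes of the p53 loop that have a window, in 3 of 9 death targets and in 7 of 16 arrest and repair targets. Matches began 75 bases before the start in Trp53, 186 before it in Mdm2, 73 and 51 before it in Cdkn1a, 185 before it in Ccng1 and 201 before it in Bax. The CArG box was present in 1.64% of the genes tested and in 4 of 13 contractile genes (Cnn2, Myl9, Srf and Vcl). A match describes the letters of the window and is not a measured binding site.

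All 8 tested genes of the p53 core loop list were lower in D325H than in WT, with a median difference of -2.22. In all 8 the libraries did not overlap. Besides genes of the feedback loop, the list holds other p53 targets, such as Cdkn1a and Pidd1. Trp53 itself measured 15.4, 17.7 and 131 TPM in D325H and 272, 240.4 and 330.1 TPM in WT. D325H libraries 1 and 2 were far below every WT library, and the third lay between them and WT. The difference was -3.02 ± 0.52 (adjusted p = 0.000287), and it was -4.00 without the third D325H library. Cdkn1a, the p21 inhibitor of cyclin-dependent kinases, had 27.3, 21.0 and 284 TPM in D325H and 597, 548 and 597 TPM in WT, a difference of -3.37 ± 0.58 (adjusted p = 0.000294). The third D325H library again stood between the groups.

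Mdm2, the ubiquitin ligase that degrades p53, measured 27.8, 31.6 and 73.6 TPM in D325H and 147, 125 and 159.9 TPM in WT (-1.81 ± 0.31, adjusted p = 0.000267). Ccng1, which encodes cyclin G1, measured 38.1, 42.0 and 177 TPM against 348, 316 and 409 TPM (-2.41 ± 0.40, adjusted p = 0.000195). Pidd1, a death-domain adaptor, and Trp53inp1, a stress-induced cofactor, differed by -2.37 and -2.06. Mdm4, the partner of MDM2, had 19.3, 24.7 and 32.6 TPM in D325H and 49.4, 42.4 and 87.3 TPM in WT (-1.15 ± 0.21). The smallest difference of the loop was that of the phosphatase gene Ppm1d, -0.39, and its call ended without D325H library 1 (adjusted p = 0.0826). All 8 genes were called without the third D325H library and none with only the 6 libraries fitted. Per library, the median of the list relative to the WT mean was -3.06, -2.83 and -0.92 in D325H, so the third D325H library was below WT by far less than the others. In bulk RNA a lower value can mean fewer cells that express a gene or less RNA per cell, which cannot be told apart.

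**Figure D1:**
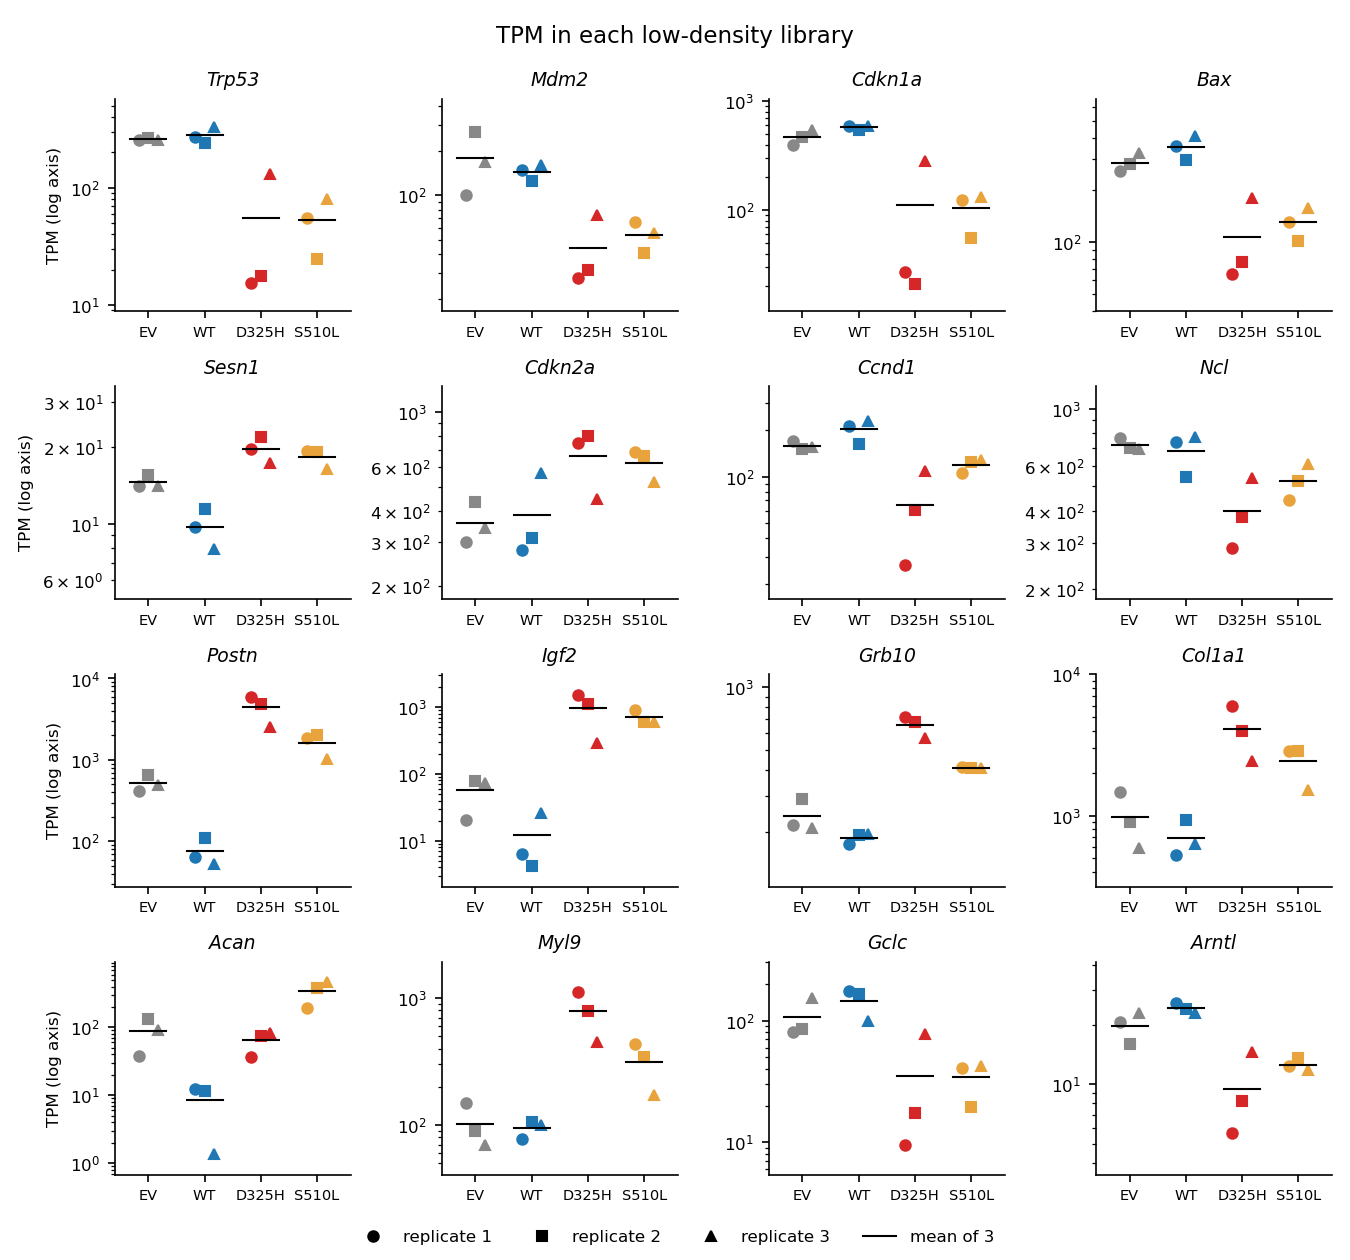
TPM on a log axis of 16 genes in the EV, WT, D325H and S510L libraries at low density; circle, square and triangle are replicates 1, 2 and 3, and the line is the mean of 3. Trp53 and Cdkn1a are lowest in D325H replicates 1 and 2, with the third at 131 and 284 TPM; Postn and Igf2 lie higher in every D325H library than in every WT library.

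Of 12 tested p53 targets of cell death, 11 were lower and none higher, with a median of -1.64. Bax, which permeabilises mitochondria, measured 65.2, 76.3 and 178 TPM in D325H and 359.9, 296 and 409.5 TPM in WT (-1.86 ± 0.27, adjusted p = 6.6e-05). Bbc3, which encodes the BH3-only protein PUMA, measured 25.5, 19.7 and 37.1 TPM against 65.1, 66.7 and 89.2 TPM (-1.42 ± 0.19, adjusted p = 2.67e-05). In both genes every D325H library was below every WT library. Eda2r, a death receptor of the TNF receptor family, was at 0.661, 0.738 and 15.7 TPM in D325H and 33.5, 26.7 and 32.9 TPM in WT (-3.13). The death receptor gene Tnfrsf10b (-1.03), Phlda3 (-1.91), Zmat3 (-1.95), the nuclease gene Aen (-1.96), Bid (-1.22) and Ei24 (-1.11) were lower as well. Perp, a tetraspan membrane protein of desmosomes, overlapped between the groups, with 3.23, 3.8 and 74.5 TPM in D325H and 154, 101 and 24.8 TPM in WT. Its call (-2.69) ended without WT library 1 (adjusted p = 0.0642), D325H library 1 (0.0839) or D325H library 2 (0.0712). The member not called was Apaf1, the apoptosome scaffold, at 16.1, 15.1 and 18.6 TPM in D325H and 15.4, 19.8 and 16.8 TPM in WT (-0.06). The count was also 11 without the third D325H library and 0 with the 6 libraries alone.

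Among 19 tested p53 targets of arrest, repair and metabolism the directions were mixed, with 11 lower, 4 higher and a median of -0.67. Sesn2, a stress inhibitor of mTORC1, measured 13.2, 13.9 and 32.4 TPM in D325H and 57.6, 54.1 and 68.4 TPM in WT (-1.66 ± 0.27). Its paralogue Sesn1 went the other way, at 19.7, 22.0 and 17.4 TPM against 9.72, 11.5 and 7.97 TPM (0.95 ± 0.12, adjusted p = 2.31e-05). Neither gene overlapped between the groups. Gtse1, a G2 phase protein that restrains p53, differed by -2.33 ± 0.40, with 7.45, 12.7 and 39.1 TPM in D325H and 87.8, 60.5 and 106 TPM in WT. The stress cytokine Gdf15 (-2.99), the antiproliferative gene Btg2 (-1.33), the epoxide hydrolase Ephx1 (-2.14), the xylulose reductase Dcxr (-1.90) and the translesion polymerase Polk (-1.0) were lower. Higher were Ddb2 of nucleotide excision repair (0.75), Plk2 (0.97) and Gadd45a (0.69). The Plk2 call ended without WT library 1 (adjusted p = 0.0599), WT library 3 (0.135) or D325H library 1 (0.0741), and the Gadd45a call without WT library 3 (0.0552) or D325H library 2 (0.0946), so that 2 of the 4 higher calls remained without WT library 3. The third D325H library left out, 4 were again higher and 11 lower. With only the 6 libraries, none of the 19 was called.

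The genes next to Trp53 on chromosome 11 moved in both directions: of 14 tested, 5 were higher and 2 lower, with a median of -0.11. Eif4a1, the translation initiation helicase, was lower (-0.48), while the histone demethylase gene Kdm6b (0.56), Tmem88 (1.53) and the sodium pump subunit gene Atp1b2 (2.07) were higher. Without D325H library 1 only 3 were called higher. With the 6 libraries alone, 1 was called higher, and without the third D325H library 5 were higher and 4 lower.

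Beyond the lists, genes with the largest differences or the smallest limma p included secreted and muscle-related products on the higher side. Of the higher genes given here, Penk was among the largest differences. Tnnt3, Mylk, Aqp5 and Pdlim4 were taken from the smallest p. Penk, the precursor of enkephalins, measured 3935, 2058 and 1400.2 TPM in D325H and 32.9, 98.4 and 10.4 TPM in WT (6.06 ± 0.83, adjusted p = 4.22e-05). Tnnt3, a skeletal troponin T, measured 46.7, 33.1 and 38.9 TPM against 2.01, 2.64 and 3.03 TPM (3.51 ± 0.32, adjusted p = 6.77e-07). Mylk, the myosin light chain kinase (3.75), the water channel gene Aqp5 (3.27) and Pdlim4 (2.80) were higher too. These genes were apart between the groups and were also called with the 6 libraries alone. On the lower side, the T cell costimulator gene Cd80 measured 1.91, 2.00 and 39.3 TPM in D325H and 69.2, 83.0 and 56.6 TPM in WT (-3.30 ± 0.66), and Psrc1, a spindle protein, 21.2, 22.4 and 129 TPM against 274, 269 and 293 TPM (-2.78 ± 0.44). Both had the pattern of Trp53, with the third D325H library between the other D325H libraries and WT. Selp, the P-selectin gene (-3.26), the LIM factor Lmo1 (-3.03) and the chloride channel gene Ano1 (-2.88) were lower. Some lower genes varied less among the 3 D325H libraries than Cd80 and Psrc1. Mgmt, the DNA alkyltransferase, measured 5.81, 7.00 and 10.9 TPM against 21.6, 22.4 and 24.0 TPM (-1.45 ± 0.17, adjusted p = 6.81e-06). Arhgdib measured 228, 294 and 271 TPM against 478, 635 and 659 TPM (-1.15 ± 0.15). H2aj, a histone H2A variant, measured 50.4, 59.2 and 73.2 TPM against 149, 143 and 178 TPM (-1.36 ± 0.15). In Mgmt and H2aj the third D325H library was again the highest of its group. Mgmt, Arhgdib and H2aj were among the 29 called lower with the 6 libraries alone.

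**Figure D2:**
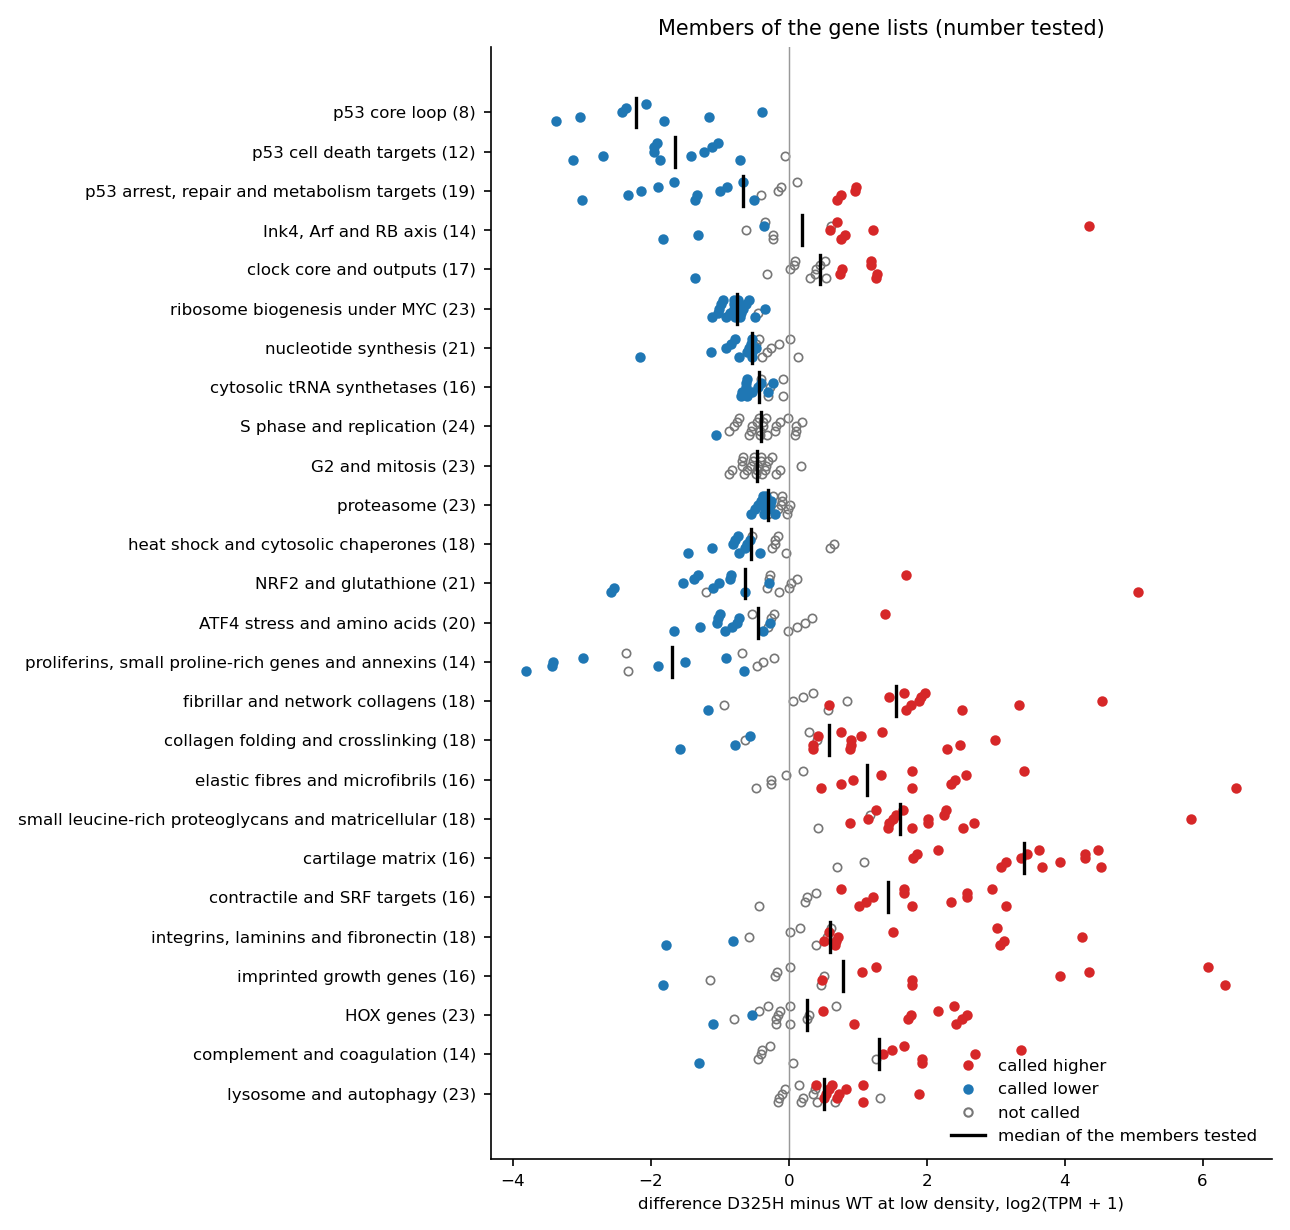
Difference in log2(TPM + 1), D325H minus WT at low density, for the tested members of 26 gene lists; red is called higher, blue is called lower, open grey is not called, and the black bar is the median. All 8 members of the p53 core loop lie below 0 and 16 of 18 small leucine-rich proteoglycans and matricellular genes are called above it.

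Inhibitors and drivers of the G1 phase moved in both directions, with 6 of 14 tested genes higher and 3 lower. Of the cyclin D genes, Ccnd1 and Ccnd2 were called lower and Ccnd3 was not. Ccnd1 had 26.6, 60.3 and 109 TPM in D325H and 215, 164 and 232 TPM in WT (-1.82 ± 0.31, adjusted p = 0.000207), and Ccnd2 had 96.8, 106 and 196 TPM against 331, 271 and 346 TPM (-1.31 ± 0.20). Every Ccnd1 and Ccnd2 value in D325H was below every WT value. Cdkn1c, which encodes p57, had 513, 217 and 175 TPM in D325H and 8.72, 17.3 and 11.9 TPM in WT (4.36 ± 0.54, adjusted p = 1.65e-05), and Cdkn1b, which encodes p27, had 80.5, 87.7 and 60.8 TPM against 29.1, 45.5 and 24.6 TPM (1.21 ± 0.20). Cdkn2a, the locus of p16 and ARF, measured 751, 801 and 447 TPM in D325H and 279, 310.1 and 570.4 TPM in WT, so the groups overlapped. Its call (0.81 ± 0.28, adjusted p = 0.0351) ended without WT library 1 (0.174), WT library 2 (0.102), D325H library 1 (0.14) or D325H library 2 (0.153). The list had 3 higher calls without WT library 1 or D325H library 1, 7 higher and 5 lower without the third D325H library, and 1 with the 6 libraries alone, Cdkn1c.

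Few genes of DNA replication and none of mitosis were called. In S phase 1 of 24 tested genes was lower, Ccne1, the cyclin of G1 exit (-1.05; 24.8, 24.4 and 42.0 TPM in D325H and 69.5, 45 and 76.0 TPM in WT), and the median was -0.40. Of 23 genes of G2 and mitosis 0 were called by limma (5 at an unadjusted p under 0.05), with a median of -0.45. These counts depended on single libraries: 7 S phase and 6 mitotic genes were called lower without D325H library 3, and 6 and 5 without WT library 2.

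Extracellular matrix genes were higher in several lists. Of 18 collagens, 11 were higher and 1 lower, with a median of 1.56. Col1a1, the main chain of type I collagen, measured 5931, 3993 and 2451 TPM in D325H and 529, 935 and 623 TPM in WT (2.52 ± 0.36, adjusted p = 6.6e-05). Col8a2, a network collagen, measured 38.5, 35.1 and 15.7 TPM in D325H and 0.119, 0.552 and 0.0791 TPM in WT (4.54 ± 0.50). Both were higher in every D325H library than in any WT library, with the third D325H library lowest. Col3a1 (3.34), Col5a1 (1.78), Col5a2 (1.45), Col4a1 (1.89) and Col4a2 (1.98) were higher, and Col18a1 of basement membranes was lower (-1.16). With the third D325H library left out the count was again 11 higher and 1 lower, and with the 6 libraries alone 4 were higher.

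Enzymes that fold and crosslink collagen were higher in most cases, with 12 of 18 higher, 3 lower and a median of 0.59. Serpinh1, the collagen chaperone HSP47, measured 1854, 1749 and 1491 TPM in D325H and 873, 999 and 846 TPM in WT (0.90 ± 0.10, adjusted p = 6.66e-06). The crosslinking oxidase genes Loxl2 (163, 118 and 70.2 TPM against 10.1, 14.9 and 14.8 TPM, 2.99 ± 0.33) and Lox (1704, 1584 and 740.2 TPM against 214, 442 and 118 TPM, 2.49 ± 0.39) were also higher, as were the prolyl hydroxylase genes P4ha1 (0.89) and P4ha2 (1.36). None of these genes overlapped between the groups. Without the third D325H library 11 were higher and 3 lower, and 2 were higher with the 6 libraries alone.

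Elastic fibre genes were higher in 11 of 16 cases and lower in none, with a median of 1.13. Mfap4, a microfibril protein, was at 205, 112 and 32.9 TPM in D325H and at 0, 0.0460 and 0.0406 TPM in WT (6.49 ± 0.61, adjusted p = 8.09e-07). Elastin itself, Eln, varied among the D325H libraries, at 57.9, 11.9 and 3.09 TPM, against 0.142, 0.382 and 0.621 TPM in WT (3.41 ± 0.56). Fbn1, the fibrillin-1 gene (1.78), Fbln1 (2.35), Fbln5 (2.40) and Mfap2 (2.58) were higher. The count stayed at 11 without the third D325H library and was 3 with the 6 libraries alone.

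Small leucine-rich proteoglycans and matricellular proteins, which coat collagen fibrils and signal to cells, were higher in 16 of 18 cases and lower in none (median 1.61). Postn, which encodes periostin, measured 5951, 4884 and 2512 TPM in D325H and 64.5, 110.2 and 52.7 TPM in WT (5.84 ± 0.59, adjusted p = 1.52e-06). Fmod, fibromodulin, measured 1579.9, 1065 and 799.9 TPM against 241, 271 and 178 TPM (2.28 ± 0.26). Sparc, a collagen-binding glycoprotein, measured 3850.2, 3027 and 2124 TPM against 1008, 1415 and 834 TPM (1.46 ± 0.24). In all of these genes the groups were apart and the third D325H library was the lowest of its group. Thrombospondins Thbs1 (1.56) and Thbs2 (2.53), biglycan (Bgn, 0.88), osteoglycin (Ogn, 2.25), asporin (Aspn, 2.02) and tenascin C (Tnc, 1.14) were also higher. Without the third D325H library 17 were called higher, and with the 6 libraries alone 5 were.

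Cartilage matrix genes had a median of 3.41, with 14 of 16 tested genes higher and none lower. Ucma, a secreted protein of growth plate cartilage, measured 21.4, 21.1 and 22.6 TPM in D325H and 0.191, 0.302 and 0 TPM in WT (4.29 ± 0.57, adjusted p = 3.12e-05). Comp, cartilage oligomeric matrix protein, measured 95.5, 61.9 and 44.4 TPM against 4.53, 7.96 and 4.12 TPM (3.36 ± 0.58). Here the third D325H library lay well above WT, as the others did. Acan, which encodes aggrecan, measured 37.0, 74.4 and 81.3 TPM in D325H and 12.2, 11.6 and 1.36 TPM in WT (3.08 ± 0.71, adjusted p = 0.00285). The EV libraries, at 38.5, 131 and 92.7 TPM, were above WT for Acan too, and the S510L libraries were higher still at 191, 386 and 459.7 TPM. Matn1 (4.29), Col9a1 (4.48), Col11a2 (3.46) and Hapln1 (3.67) were higher than in WT. Col2a1, the main collagen of cartilage, overlapped between the groups, at 606, 615 and 1185 TPM in D325H and 618, 591 and 281 TPM in WT, and was not called (0.70, adjusted p = 0.107). The count was 14 without the third D325H library and 8 with the 6 libraries alone.

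Regulators and hypertrophic markers of cartilage moved in both directions. Of 13 tested, 4 were higher and 3 lower. Sox9, the master regulator of cartilage, was not called (0.04, adjusted p = 0.939), with 47.1, 78.4 and 128 TPM in D325H and 94.3, 95.3 and 48.1 TPM in WT. Col10a1, the collagen of hypertrophic cartilage, was at 0.434, 2.25 and 17.0 TPM in D325H and 45.2, 31.5 and 28.3 TPM in WT (-3.01 ± 0.64), and Alpl, the alkaline phosphatase of mineralising cells, was lower too (-2.18). Pth1r, the receptor of parathyroid hormone, was higher (2.29). Without WT library 1 the list had 2 higher calls, without the third D325H library 3 higher and 3 lower, and with the 6 libraries alone it had 1. Matrix proteases and their inhibitors were called higher in 5 of 16 cases and lower in 2, with Adamts5, an aggrecan-cleaving protease (2.75), and Mmp14 (0.68) among the higher; 3 were higher without WT library 1 or D325H library 1, 5 higher and 2 lower without the third D325H library, and none with the 6 libraries alone.

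Contractile genes and other targets of serum response factor were higher in 12 of 16 cases and lower in none (median 1.44). Myl9 measured 1119, 788 and 449 TPM in D325H and 78.0, 106 and 100.1 TPM in WT (2.95 ± 0.37, adjusted p = 1.65e-05). Tpm1, a tropomyosin, measured 3315, 2414 and 2459 TPM against 1279, 1227 and 996 TPM (1.22 ± 0.15). The groups did not overlap in either gene. Leiomodin (Lmod1, 3.15), calponins Cnn1 (2.59) and Cnn2 (1.78), transgelin (Tagln, 2.58), vinculin (Vcl, 1.67) and smooth muscle myosin (Myh11, 1.67) were higher. The count was 12 without the third D325H library and 7 with the 6 libraries alone.

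Among integrins, laminins and related adhesion genes 10 of 18 were higher and 2 lower. Itga11, the alpha chain of a collagen receptor, measured 178, 146 and 65.4 TPM in D325H and 3.2, 8.47 and 5.29 TPM in WT (4.26 ± 0.45, adjusted p = 3.38e-06). Itga1, of another collagen receptor (3.02), the nidogen gene Nid2 (3.12) and the laminin gene Lama4 (3.07) were higher. Itga6, of a laminin receptor, was lower, at 6.97, 13.1 and 28.1 TPM against 57.4, 43.1 and 50.1 TPM (-1.78 ± 0.35). Without D325H library 1 the higher calls numbered 6, without the third library 10, and with the 6 libraries alone 5.

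**Figure D3:**
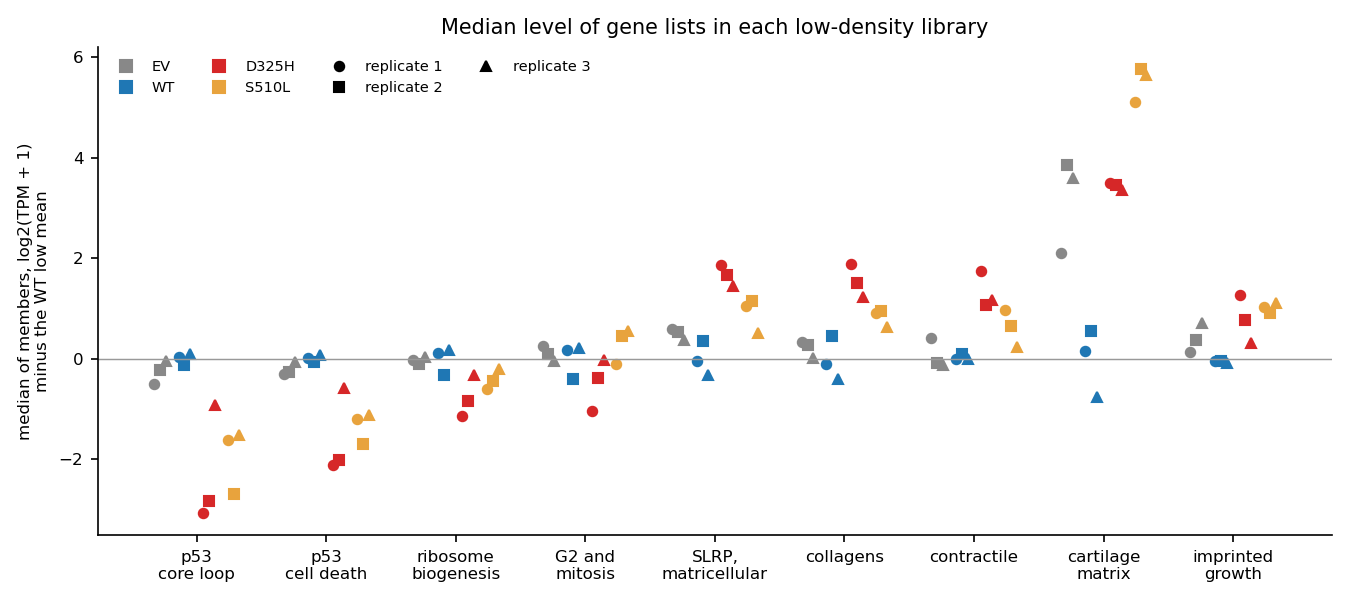
Median over list members of log2(TPM + 1) less the WT low mean, for each EV, WT, D325H and S510L library at low density and 9 gene lists. For the p53 core loop the D325H libraries are at -3.06, -2.83 and -0.92, the EV libraries at -0.50, -0.23 and -0.05 and the S510L libraries at -1.61, -2.68 and -1.51.

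Imprinted genes of fetal growth were higher in 9 of 16 cases and lower in 1 (median 0.78). Grb10, an adaptor that dampens insulin signalling, measured 717, 679 and 566 TPM in D325H and 175, 194 and 196 TPM in WT (1.79 ± 0.14, adjusted p = 3.48e-08). Mest measured 569, 499 and 481 TPM against 8.64, 7.39 and 4.56 TPM (6.07 ± 0.75). In these the 3 D325H libraries were close to each other. Igf2, the fetal insulin-like growth factor, ranged more widely, at 1552, 1124 and 296 TPM against 6.35, 4.12 and 25.8 TPM (6.32 ± 0.74, adjusted p = 7.65e-06). Plagl1, a zinc finger factor (3.93), Sgce (1.26) and Gnas (0.48) were higher, and Peg10 was lower (-1.83), a call that ended without D325H library 1 (adjusted p = 0.0589). The list had 9 higher calls without the third D325H library and had 5 with the 6 libraries alone.

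The IGF axis had 7 of 16 genes higher and none lower. Igf1 stood at 13.9, 17.8 and 7.38 TPM in D325H and at 0.0312, 0.198 and 0.147 TPM in WT (3.56 ± 0.48), and Irs1, the receptor substrate, at 36.7, 40.7 and 30.6 TPM against 4.56, 10.0 and 3.79 TPM (2.47 ± 0.42). Neither overlapped. The receptor gene Igf1r (0.66) was higher as well. The higher calls numbered 4 without D325H library 1, 7 without the third (with 1 lower) and 3 with the 6 libraries alone. Receptors of other growth factors were higher in part: of 15 tested genes of PDGF and FGF signalling 7 were higher and 1 lower, with Pdgfrb at 132, 127 and 90.5 TPM against 43.5, 57.0 and 43.8 TPM (1.25 ± 0.20) and Fgfr1 at 111, 103 and 71.8 TPM against 22.1, 36.5 and 35.3 TPM (1.59 ± 0.25). Dusp6, a phosphatase induced by ERK signalling, was the lower one (-1.84). Leaving out the third D325H library again gave 7 higher and 1 lower. With the 6 libraries alone 2 of this list were called, Pdgfrb and Fgfr1.

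Secreted regulators of BMP and WNT were mostly not called, with 4 of 18 higher and 1 lower. Sfrp2, a WNT antagonist, was abundant at 7109, 5557 and 2600.2 TPM in D325H against 258, 992 and 677 TPM in WT (3.07 ± 0.61, adjusted p = 0.000981). Of 15 genes of the TGF beta axis 5 were higher, among them Smad3 (0.87), but the number was 1 without D325H library 1 and 3 without WT library 1, WT library 3 or D325H library 2. Of that axis, 4 genes were higher without the third D325H library. The calls in the BMP and WNT list and in the TGF beta list were near the share over all genes tested, 29% in either direction. The BMP and WNT list had 2 higher calls without D325H library 1, and 3 higher and 2 lower without the third, and neither list had a call with the 6 libraries alone.

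Homeobox genes of the Hox clusters, which record position along the body, were higher in 9 of 23 tested cases and lower in 2, and Hoxb genes made up most of the higher ones. Hoxb2, Hoxb3, Hoxb5, Hoxb6, Hoxb7, Hoxb8 and Hoxb9 differed by 1.73 to 2.58. Hoxb8 measured 30.7, 34.8 and 18.9 TPM in D325H and 3.92, 1.19 and 8.75 TPM in WT (2.58 ± 0.52). Hoxa10 was also higher (0.95) and Hoxa11 lower (-1.09). The count of higher genes was 9 without the third D325H library and 2 with the 6 libraries alone. Other mesenchymal transcription factors were called in both directions, with 7 of 22 higher and 4 lower. Twist2 (-0.96), Foxc2 (-1.44) and Klf4 (-1.10) were lower, and the higher count was between 1 and 4 when WT library 1, WT library 3, D325H library 1 or D325H library 2 was left out, and 2 without the filter on low values. It was 7, with 4 lower, without the third D325H library and 0 with the 6 libraries alone.

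Of 23 tested genes of ribosome assembly, 22 were lower and none higher, with a median of -0.75. Npm1, which encodes nucleophosmin, measured 1342, 1669.9 and 2317 TPM in D325H and 3044, 2435 and 3282 TPM in WT (-0.74 ± 0.16, adjusted p = 0.00173). Nolc1, a nucleolar phosphoprotein, measured 72.1, 76.7 and 128 TPM against 194, 129.7 and 207 TPM (-0.95 ± 0.23), and Bop1, of the PeBoW complex, measured 34.9, 37.3 and 58.0 TPM against 91.9, 65.0 and 87.8 TPM (-0.92 ± 0.22). The groups did not overlap, but in each gene the third D325H library was the highest and the second WT library the lowest of its group. Nop2 (-0.78), Gnl3 (-0.79), Rrp9 (-1.12) and Bysl (-0.79) were lower. The number of lower calls was 9 without D325H library 1, 13 without WT library 3, 23 without the third D325H library and 0 with the 6 libraries alone. An E-box CACGTG, the motif of MYC and of CLOCK and BMAL1, was in the window of 5 of 19 members and of 11.7% of the genes tested.

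Synthesis of nucleotides had 13 of 21 genes lower and none higher, with a median of -0.53. Cad, the enzyme that begins pyrimidine synthesis, measured 37.5, 42.2 and 78.8 TPM in D325H and 128, 91.7 and 114 TPM in WT (-1.12 ± 0.26). Rrm2, a subunit of ribonucleotide reductase, measured 20.9, 55.8 and 136 TPM against 328, 156 and 291 TPM (-2.16 ± 0.50). Lower calls numbered 7 or 8 without WT library 1, WT library 3, D325H library 1 or D325H library 2, 16 without D325H library 3 and 0 with the 6 libraries alone. In polyamine and arginine metabolism 6 of 13 were lower and 3 higher. Ass1, argininosuccinate synthase, was at 11.1, 12.3 and 147 TPM in D325H and 324.8, 310.3 and 359.8 TPM in WT (-3.53 ± 0.62, adjusted p = 0.000319), and Srm, spermidine synthase, was lower (-0.97). Leaving out the third D325H library gave 7 lower and 4 higher calls there, and with the 6 libraries alone 1 was lower. The MYC and MAX network itself had 1 call among 10 genes with or without the third D325H library, Max (-0.33), which ended without WT library 3 (adjusted p = 0.203), D325H library 1 (0.109) or D325H library 2 (0.0865).

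Cytosolic tRNA synthetases were lower in 11 of 16 cases (median -0.43), with Wars at 29.4, 33.3 and 43.8 TPM in D325H and 61.0, 46.9 and 64.3 TPM in WT (-0.68 ± 0.15). The count was 3 without WT library 1, 3 without D325H library 1, 4 without D325H library 2 and 14 without the third. Cytosolic and mitochondrial chaperones were lower in 10 of 18 cases (median -0.55): Hspa8, the constitutive HSP70, measured 2267, 2564 and 3695 TPM against 5016, 4149 and 4809 TPM (-0.74 ± 0.17), and Hspd1, mitochondrial HSP60, differed by -1.12. The count was 13, with 1 higher, without the third D325H library. Chaperones of the endoplasmic reticulum had 2 of 17 higher, with Xbp1 at 0.68, and 2 lower, but 9 lower without D325H library 3. With all libraries, the calls among these chaperones were near the share over all genes tested, 29% in either direction.

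Proteasome subunits were lower in 13 of 23 cases with a small median of -0.29, and the count was 7 after quantile normalization or with no filter, 8 after median-ratio scaling and 2 to 6 when WT library 1, WT library 3, D325H library 1 or D325H library 2 was left out; it was 16 without the third D325H library. Nuclear genes of the respiratory chain were lower in 13 of 29 cases (median -0.20). Uqcrc1, of complex III, measured 151, 150.2 and 178 TPM in D325H and 233, 199 and 211 TPM in WT (-0.42 ± 0.08), and Cycs, cytochrome c, 9.08, 11.0 and 17.0 TPM against 32.7, 19.5 and 32.3 TPM (-1.14 ± 0.29). The respiratory count was 8 without WT library 1, 6 without D325H library 1 and 15, with 1 higher, without the third. None of these synthetase, chaperone, proteasome and respiratory genes was called with the 6 libraries alone.

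Genes of the NRF2 antioxidant response and glutathione were lower in 11 of 21 cases and higher in 2 (median -0.63). Gclc, the rate-limiting enzyme of glutathione synthesis, measured 9.45, 17.4 and 77.4 TPM in D325H and 174, 164 and 99 TPM in WT (-2.53 ± 0.50, adjusted p = 0.00083). Hmox1, heme oxygenase 1, measured 41.6, 50.6 and 90.0 TPM against 208, 151 and 151 TPM (-1.53 ± 0.24). The groups were apart in both. Gss, glutathione synthetase (-1.37), Txnrd1, thioredoxin reductase (-1.01), and the pentose phosphate genes G6pdx (-0.83) and Pgd (-0.85) were lower. Gpx3, a secreted glutathione peroxidase, was higher, at 504, 580.2 and 142 TPM against 21.9, 1.68 and 17.6 TPM (5.06 ± 0.65). Lower calls numbered 6 without WT library 1 or D325H library 1, 13 without D325H library 3 and 0 with the 6 libraries alone. The antioxidant element core TGACNNNGC was in 16.7% of windows of genes tested and in 6 of 17 of this list.

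Targets of ATF4, the factor of amino acid stress, were lower in 11 of 20 cases and higher in 1 (median -0.45). Phgdh, which begins serine synthesis, measured 94.0, 106 and 183 TPM in D325H and 270.0, 183 and 298 TPM in WT (-1.0 ± 0.25), and Slc7a5, an amino acid transporter, 28.3, 37.6 and 84.5 TPM against 143, 93.2 and 102 TPM (-1.28 ± 0.31). Lower calls numbered 3 to 7 when WT library 1, WT library 3, D325H library 1 or D325H library 2 was left out, and 7 with no filter on low values. Without the third D325H library 12 were lower and 1 higher, and with the 6 libraries alone 1 was higher, the lipoprotein receptor gene Vldlr (1.39). Hypoxia and glycolysis genes were mixed, with 9 of 26 higher and 3 lower. Car9, a hypoxia-induced carbonic anhydrase, measured 203, 180.1 and 49.6 TPM against 12.1, 14.8 and 6.73 TPM (3.40 ± 0.52), Slc2a1, the glucose transporter, was higher (0.90), and Car12 was lower (-1.81). The hypoxia list had 8 higher and 5 lower without the third D325H library and 2 higher with the 6 libraries alone. Sterol and fatty acid synthesis had 2 of 25 higher and 2 lower, 1 and 3 without the third D325H library and none with the 6 libraries alone.

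Lysosomal and autophagy genes were higher in 11 of 23 cases and lower in none (median 0.52). Psap, prosaposin, measured 756, 688 and 497 TPM in D325H and 355, 445 and 436 TPM in WT (0.63 ± 0.14), with no overlap. The count was 7 without WT library 1 or D325H library 1, 15 without D325H library 3 and 0 with the 6 libraries alone. Among genes of lipid handling, 5 of 19 were lower and 2 higher. The amine oxidase gene Aoc3 measured 169, 185 and 58.0 TPM against 3.14, 3.13 and 3.62 TPM (4.84 ± 0.45, adjusted p = 8.09e-07), and Fabp4 was lower (-1.96). Apoe had 171 and 189 TPM in D325H libraries 1 and 2 but 22.3 TPM in the third, within the WT values of 8.37, 2.63 and 29.3 TPM. The lower count was 2 or 3 without WT library 3, D325H library 1 or D325H library 2 and 6, with 2 higher, without the third; with the 6 libraries alone 1 was higher, Aoc3.

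Complement and coagulation genes were higher in 7 of 14 cases and lower in 1 (median 1.31). The complement proteases C1s1 (252, 226 and 78.3 TPM in D325H and 9.39, 24.2 and 15.1 TPM in WT, 3.36 ± 0.65) and C1ra (2.71) and tissue factor, F3 (1.93), were higher, while Cd55, which restrains complement, was lower (-1.30). Interferon response and antigen presentation had 8 of 17 higher and 1 lower. B2m, the light chain of MHC class I, measured 1123, 951 and 672 TPM against 482, 564 and 461 TPM (0.84 ± 0.14), and Tapbp, tapasin, was higher (1.26), whereas the peptide transporter Tap1 was lower, at 2.89, 2.70 and 8.47 TPM against 11.9, 19.0 and 19.7 TPM (-1.76 ± 0.34). The higher count was 4 without WT library 3. Of 16 cytokines and chemokines 5 were higher and 3 lower: Cxcl12 measured 926, 1559 and 453 TPM against 37.7, 142 and 21.6 TPM (4.12 ± 0.60, adjusted p = 7.55e-05), and the interleukin 6 family cytokine Lif was lower (-1.69); with mean TPM of at least 5 required, 2 were higher. Without the third D325H library the higher and lower calls were 7 and 1 for complement, 7 and 1 for interferon and 5 and 4 for cytokines. With the 6 libraries alone 1 complement gene, 1 interferon gene and no cytokine were called higher.

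Proliferins, small proline-rich proteins, annexins and related surface genes were lower in 8 of 14 cases (median -1.70). Anxa8 was at 3.46, 5.16 and 44.5 TPM in D325H and 96.2, 93.4 and 66.7 TPM in WT (-2.98 ± 0.59). S100a6, a calcium-binding protein, measured 2313, 1887 and 3366 TPM against 5346, 4347 and 4243 TPM (-0.92 ± 0.17). The proliferin paralogues Prl2c2 and Prl2c3, between which reads may be shared, differed by -3.43 and -3.41, and their calls ended without D325H library 1 (adjusted p = 0.0824 and 0.0689), that of Prl2c2 also without WT library 1 (0.0605) or D325H library 2 (0.0625). The list had 3 lower calls without D325H library 1, 10 without the third and none with the 6 libraries alone. Architectural chromatin genes Hmga1 (111, 223 and 350.4 TPM in D325H and 898, 640.3 and 1251 TPM in WT, -2.12 ± 0.38) and Hmga2 (-1.50) were lower, in a list of chromatin repressors with 4 of 19 lower and 2 higher, and 7 lower without D325H library 3. Immediate early and AP-1 genes (4 of 18 higher, 4 lower) and YAP targets (4 of 18 higher, 2 lower) were called in both directions. The calls in the chromatin and YAP lists were near the share over all genes tested, 29% in either direction. Without the third D325H library the immediate early list had 4 higher and 4 lower calls, and the YAP list 3 higher and 3 lower. None of the chromatin, immediate early and YAP genes was called with the 6 libraries alone.

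Of 17 tested clock genes 6 were higher and 1 lower, with a median of 0.46. The lower one was Arntl, which encodes BMAL1, the activator that CRY2 represses: it measured 5.64, 8.26 and 14.5 TPM in D325H and 25.7, 23.9 and 23.0 TPM in WT (-1.36 ± 0.24, adjusted p = 0.000394). Every D325H library was below WT, the third least. The repressor genes Per2 (5.10, 7.13 and 5.31 TPM against 2.80, 3.48 and 2.96 TPM, 0.74 ± 0.17) and Per3 (1.28) and the E-box repressors Bhlhe40 (1.19) and Bhlhe41 (1.19) were higher. The calls of Per1 (0.77) and of Dbp (1.27), an output factor, ended without D325H library 1 (adjusted p = 0.11 and 0.0511), that of Per1 also without WT library 3 (0.0813) and that of Dbp without WT library 1 (0.0638) or D325H library 2 (0.063). When a mean of 5 TPM or more was required, 3 clock genes were called higher, without the third D325H library 7 were higher and 1 lower, and with the 6 libraries alone none was called. The phase of the cultures at harvest is not given in the labels.

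Markers were used to check the cell type and to look for other cells. The summed TPM of 12 fibroblast markers was 10170 to 12250 in WT and 12930 to 14830 in D325H. Defining markers of leukocytes (10 of 11 under 1 TPM in all 6 libraries, 5 of them at 0) and endothelium (9 of 10) were near absent. The endothelial sum was 1.03 to 1.859 TPM in WT and 4.33 to 8.983 TPM in D325H, and its tested member Erg, an ETS factor, was higher (2.93, 6.47 and 6.79 TPM in D325H and 0.310, 0.867 and 0.173 TPM in WT, 2.10). Neural, glial and melanocyte markers summed to 66.07 to 78.19 TPM in WT and 34.01 to 70.18 TPM in D325H, with Mbp called higher (1.57) and 2 of 9 tested called lower. Skeletal muscle markers summed to 11.66 to 22.78 TPM in WT and 45.13 to 112.5 TPM in D325H, with 9 of 11, Myod1 and Myog included, under 1 TPM throughout. Markers of pericytes and smooth muscle, some of which are contractile genes, summed to 116.3 to 137.1 TPM in WT and 235.8 to 566.8 TPM in D325H, all 10 above 1 TPM in some library. Epithelial markers summed to 338 to 569.3 TPM in WT and 29.33 to 284 TPM in D325H, with Epcam and 5 others under 1 TPM and Cldn3 at 0. The part of the marker levels of other cell types in the contractile and other differences was not tested.

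Calls were unevenly placed in the genome. Of 763 tested genes on chromosome 8, 189 were lower (24.8%) and 49 higher (6.42%), with a median difference of -0.198. Less the median of all genes, the chromosome 8 median was -0.285, -0.29 and -0.0469 in the D325H libraries and 0.0745, 0.131 and -0.197 in the WT libraries, so that the third D325H library lay above the third WT library, against the order of the group means. In S510L it was -0.254, -0.292 and -0.291 and in EV -0.0232, -0.256 and -0.144. Members named above that lie there are Hmox1, Gdf15, Slc7a5, Foxc2 (lower) and Comp, Col4a1, Col4a2 and Fgfr1 (higher). The part of a chromosome-wide shift in their differences was not tested. Chromosome 19 also had more lower than higher calls, 54 (17.5%) and 27 (8.77%) of 308 tested genes. Its median, less that of all genes, was -0.0457, -0.081 and -0.0723 in D325H and -0.00484, -0.00902 and 0.00568 in WT. In EV it was -0.0695, -0.0269 and -0.0165. The chromosome 19 median difference was -0.0954 at low and 0.0286 at high density.

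**Figure D4:**
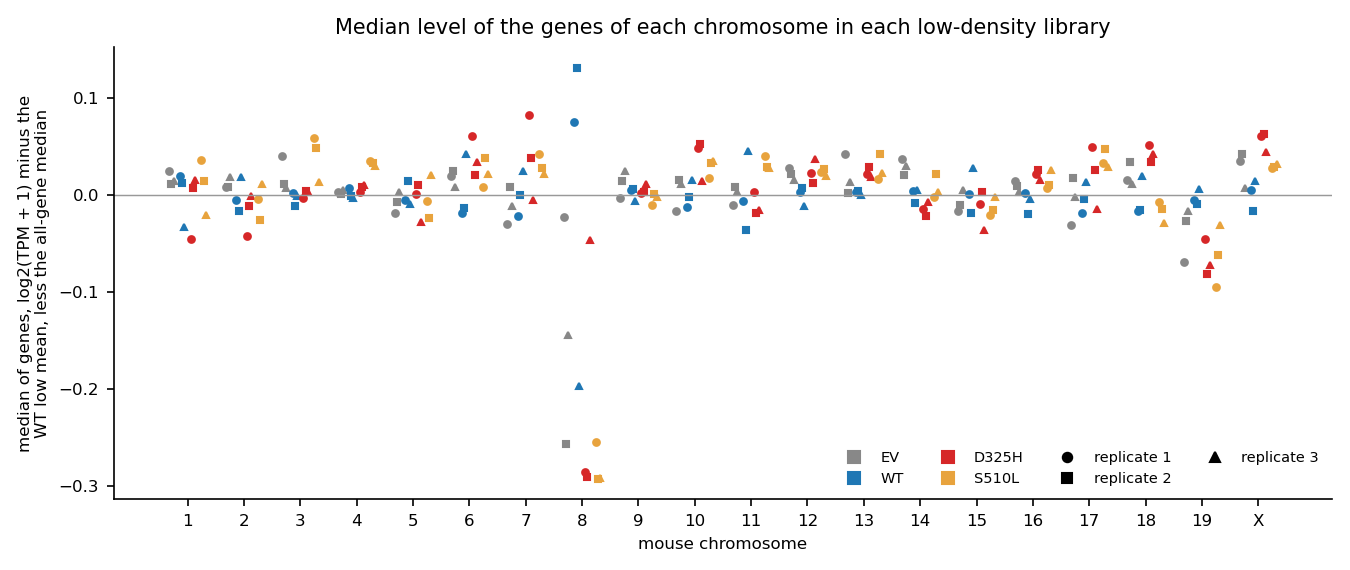
Median over tested genes of each chromosome of log2(TPM + 1) less the WT low mean, less the same median over all genes, for the low-density libraries. On chromosome 8 D325H libraries 1 and 2 are at -0.285 and -0.29 and the third at -0.0469, with the WT libraries at 0.0745, 0.131 and -0.197.

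The same constructs were compared in separate libraries at high density, where 1436 genes were called (10.2%), 770 higher (5.46%) and 666 lower (4.73%). Of the genes called at low density 96.6% had the same sign at high density, against 75.9% of all genes tested. Both densities called 1135 genes, 27.8% of the low-density calls and 79% of the high-density calls, and 1134 of them had the same sign. Genes called at both had median differences of 1.08 at low and 0.89 at high density where higher, and -0.83 and -0.75 where lower. No gene was called for a difference between the densities in the limma interaction test, although 913 had an unadjusted p under 0.05. The 2 densities also differ in the day of harvest; the labels do not say whether both used the same cell populations. At high density, leaving out D325H library 2 gave 254 calls, and leaving out WT library 1, 2 or 3 gave 490, 903 or 479; array weights gave 1727 calls for the difference between densities.

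Trp53 at high density measured 59.2, 32.6 and 126 TPM in D325H and 253, 279 and 266 TPM in WT (-2.07, adjusted p = 0.015), with no overlap. The p53 loop was again lower in 8 of 8 genes, with a median of -1.74, and death targets in 10 of 12. Postn was at 1175, 3721 and 902 TPM against 41.3, 90.7 and 50.2 TPM (4.76). Proteoglycans and matricellular genes were higher in 6 of 18 cases, collagens in 5 of 18 and contractile genes in 6 of 16. Cartilage matrix was called in 1 of 16, with a median of 1.36, and Acan measured 2.01, 19.9 and 13.8 TPM in D325H and 3.53, 2.08 and 5.70 TPM in WT, which overlapped. Ribosome assembly was lower in 5 of 23 cases (median -0.46), the proteasome and respiratory lists had 0 calls in limma (7 and 8 genes at an unadjusted p under 0.05), and sterol synthesis was higher in 8 of 25. None of these list differences between densities passed the test for any member.

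**Figure D5:**
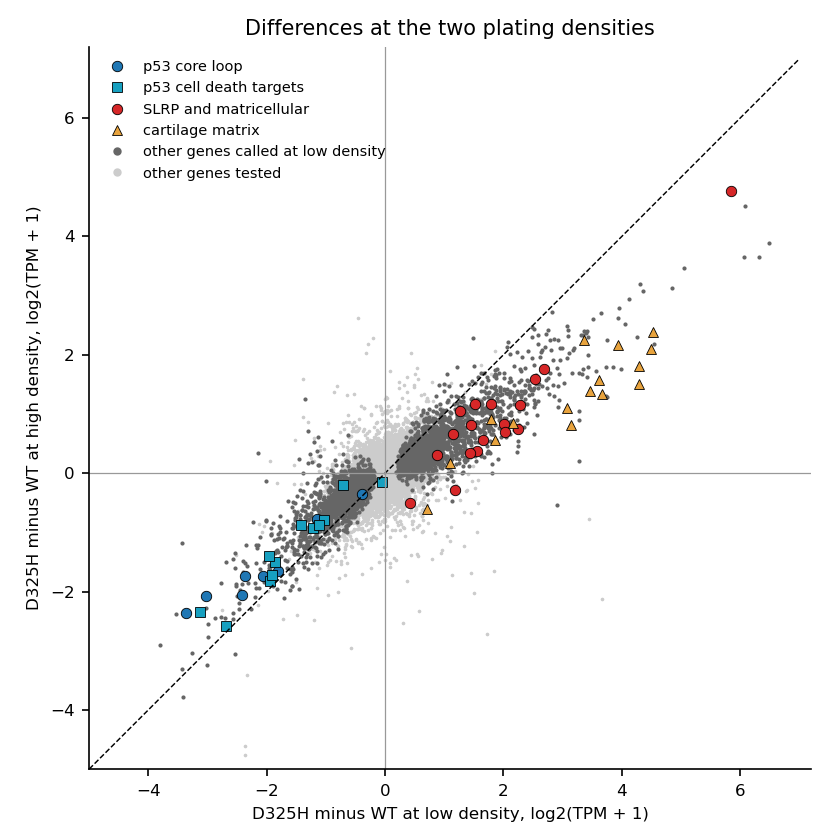
Difference in log2(TPM + 1), D325H minus WT, at low density (horizontal) and high density (vertical), for all genes tested (grey) and genes called at low density (dark grey). Coloured points are members of the p53 core loop, p53 cell death targets, small leucine-rich proteoglycans and matricellular genes, and cartilage matrix. The dashed line marks equal differences. Of the low-density calls 96.6% have the same sign at high density, and the cartilage list has medians of 3.41 at low and 1.36 at high density.

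Against EV, which has no CRY2, the D325H libraries differed in 2811 genes (19.9%), 1374 higher (9.75%) and 1437 lower (10.2%). This comparison shares the D325H libraries with the one against WT, so the values are set side by side and are not a second test. The count was 5 with only these 2 groups fitted, 636 without D325H low 1, 1200 without D325H low 2 and 1156 without EV low 3. Trp53 measured 254, 266 and 257 TPM in EV, close to WT, and the D325H minus EV difference was -2.92 (adjusted p = 0.00122). The p53 loop was lower in 7 of 8 genes against EV, Mdm4 being the one not called (-0.31), with 31.3 ± 3.43 TPM (SD, n = 3) in EV. Ribosome assembly was lower in 23 of 23 and contractile genes were higher in 14 of 16 (median 1.36). Postn was at 422, 645 and 489 TPM in EV, between WT and D325H (D325H minus EV 3.03). Cartilage matrix was called higher against EV in 1 of 16 genes, with a median of -0.31, where the value against WT was 3.41. Cdkn1c (2.57), Mest (2.37) and Plagl1 (1.53) were higher than in EV, where their differences from WT were 4.36, 6.07 and 3.93.

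Against S510L, another changed CRY2, 1006 genes were called (7.14%), 329 higher in D325H (2.33%) and 677 lower (4.8%). That split was 453 higher and 449 lower after quantile normalization and 487 higher and 376 lower after median-ratio scaling. The count was 101 with only these 2 groups fitted, 356, 455 and 2035 without D325H low 1, 2 or 3, and 628, 384 and 629 without S510L low 1, 2 or 3. Trp53 measured 54.6, 24.7 and 80.3 TPM in S510L, within the range of the D325H libraries, and the difference of -0.51 was not called (adjusted p = 0.61). In limma 0 genes of the p53 loop (median -0.35) and 0 of the death targets were called, with 1 and 2 at an unadjusted p under 0.05. Cry2 itself was higher in D325H (2.48, adjusted p = 0.000149), with 21.4, 27.5 and 13.2 TPM in S510L. Cartilage matrix was lower in D325H than in S510L in 10 of 16 genes (median -2.42), Col2a1 being at 3633, 3878 and 3596 TPM in S510L (-2.28, adjusted p = 0.000193). Elastic fibre genes were higher in 7 of 16 and contractile genes in 6 of 16. Sterol synthesis was lower in 11 of 25.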

How the data were processed

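The values are TPM as deposited by the authors, in 1 table with 34724 gene symbols and 30 columns; the columns were matched to samples by the number at the head of the sample titles. Per the submitters' processing notes the TPM came from kallisto (version not given in the sources used here), with GRCh37.p13, a human assembly, as the build, whereas 34095 symbols are in the mouse gene table; the transcript set is therefore uncertain. Reads were single-end, 50 bases, per the labels' protocols. kallisto shares reads among near-identical transcripts, so values of paralogues are less certain. TPM keeps no depth, so precision rests on replicates.

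Values were analysed as log2(TPM + 1). The 14093 genes with at least 1 TPM in at least 3 libraries were fitted with limma 3.58.1 (R 4.3.3), with 1 mean per group over all 30 libraries, so that the groups share 1 estimate of the spread, empirical Bayes with a trend, and Benjamini-Hochberg adjustment over all genes; differences under an adjusted p of 0.05 were called. The gene groups, 55 lists with 999 genes, of which 852 were tested, 112 did not pass the filter and 35 are not analysed here, and the members were chosen with earlier results of these data known. Genes were named by rule: fixed clock and p53 genes, the 15 largest differences and the 10 smallest p in each direction with no overlap, and for each list up to 4 called members of smallest p in each direction with members that go against it or are its most abundant; some named genes fall outside this rule and were chosen after their values were seen. Promoters were read from RefSeq, build GRCm38.p6, and chromosomes from GENCODE M21. Alternatives were pseudocounts of 0.1 and 5, other filters, quantile and median-ratio scaling, array weights, no trend, the compared groups alone, each replicate left out, and the replicate number as a block. Same-numbered WT and D325H libraries had correlations of deviations of -0.229, -0.0428 and -0.223, so the numbers were not taken to pair the samples.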

Additional observations from a re-analysis of the deposited data

Results flagged for a closer look

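Among the 278 genes named by rule, 2 had D325H effects of opposite sign at the 2 densities, with separated libraries in both. Other genes were not searched for this pattern. Neither gene passed the test of the difference over all genes. Both had been named for their small p in that test, so this p is no separate support. Mrpl27, a mitochondrial ribosomal protein gene, measured 44.5, 45.6 and 41.6 TPM in D325H and 53.4, 51.1 and 56.5 TPM in WT at low density, and 64.1, 57.0 and 61.4 TPM against 49.4, 52.0 and 53.3 TPM at high density. Its effects were -0.28 and 0.23, a difference of -0.518 with an interaction p of 0.000144 and a limma adjusted p of 0.732. Lrg1, a secreted leucine-rich glycoprotein gene, was near the lower end of detection: at low density it measured 0, 0.286 and 0 TPM in D325H and 0.321, 0.449 and 0.698 TPM in WT, and at high density 0.916, 1.51 and 2.45 TPM against 0.310, 0.648 and 0.151 TPM. Its effects were -0.45 and 0.91, a difference of -1.36 with a limma adjusted p of 0.732. No explanation of either was tested.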

How the results depend on the processing

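The main count of 4081 genes stayed between 3515 and 4299 with other pseudocounts, filters, scalings or without the variance trend. With only the groups compared fitted it was 247, with 5 genes against EV and 101 against S510L, and 57 of the 272 named genes called in the main analysis were called. Array weights gave 7511 genes at low density, 3387 at high density, 1727 for the difference between densities, 6085 against EV and 4450 against S510L. Leaving out 1 library at a time gave 2169 to 4957 at low density (2169 without D325H low 1, 2505 without WT low 1, 2523 without D325H low 2), 254 to 1420 at high density, 0 to 5 for the difference between densities, 636 to 4115 against EV and 356 to 2035 against S510L. With no filter the difference between densities had 2 genes. With the replicate block, the counts were 4139, 1537, 0, 2958 and 1082; the numbers were not taken to pair the samples. The percentage of calls that were higher was 51.2 at low density, 47.9 after quantile normalization and 57.3 after median-ratio scaling; against S510L it was 32.7, 50.2 and 56.4. None of the 278 genes named by rule reversed its direction in any alternative run. Since 272 of them were called in the main analysis, reversals were unlikely by this selection. Genes named outside the rule, such as Sox9 and Apaf1, were not checked for reversal. The causes of these differences were not tested, and depth could not be assessed from TPM.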
